A study of Rattus norvegicus with 8 samples.

Results

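The endoplasmic reticulum (ER) stress and integrated stress response genes described here are 10 genes, Atf4, Ddit3, Xbp1, Ppp1r15a, Hspa5, Hsp90b1, Chac1, Trib3, Asns and Sesn2, taken by symbol from the 15590 genes of an expression table of the rat Achilles tendon. All 10 were in the table, and all 10 were among the 13863 genes that passed a filter on low values and were tested. The tendons came from wild-type male Sprague-Dawley rats of 8 to 10 weeks. The 4 samples of the naïve control group (NC) came from rats that kept their normal activity, and the 4 samples of the 0 h p.r. group (post-running) were collected immediately after a single 1 h uphill treadmill run at 20 m per min on a 10 degree incline. No transgene or drug was used in either group. According to the study's methods, control rats were sacrificed together with a group collected later, and runners were kept moving by airflow or a mild electric stimulus, so the run, the stimulus and the hour of collection cannot be told apart. The labels do not say that each library is a separate rat, and the p-values below measure the spread between these samples.

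The ER folds secreted and membrane proteins, and tendon fibroblasts use it to make large amounts of collagen. Unfolded protein in the ER is sensed by IRE1, PERK and ATF6. IRE1 splices the Xbp1 mRNA, ATF6 and spliced XBP1 raise chaperones such as BiP (Hspa5), and PERK phosphorylates the translation factor eIF2α. Other kinases phosphorylate eIF2α in response to amino acid shortage, heme shortage or double-stranded RNA. Phosphorylated eIF2α lowers protein synthesis in general while the mRNA of ATF4 is translated more, and ATF4 in turn drives genes for amino acid supply and stress. This is the integrated stress response, and GADD34 (Ppp1r15a) closes the loop by bringing a phosphatase to eIF2α. The table gives 1 value per gene in FPKM (fragments per kilobase of gene, scaled for library depth), so it does not show the splicing of Xbp1, the phosphorylation of eIF2α or the translation of Atf4.

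After the run, Ppp1r15a was 3.33-fold higher and Atf4 1.63-fold higher, and the other 8 genes did not pass the test. A gene was called changed at a limma adjusted p under 0.05 and a fold of at least 2. By that rule 1 of the 10 genes was called (Ppp1r15a), against 2.70% of all genes tested. By adjusted p alone 2 of 10 passed, Ppp1r15a and Atf4, against 5.72% of all genes tested. The samples of the 2 groups did not overlap for the same 2 genes, against 15.6% of all genes tested in either direction. The median log2 change of the 10 genes was 0.09, beside -0.0014 over all genes tested. All folds and log2 changes were computed after adding 0.5 to each FPKM value, so those of low genes such as Chac1 come out too small.

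**Figure D1:**
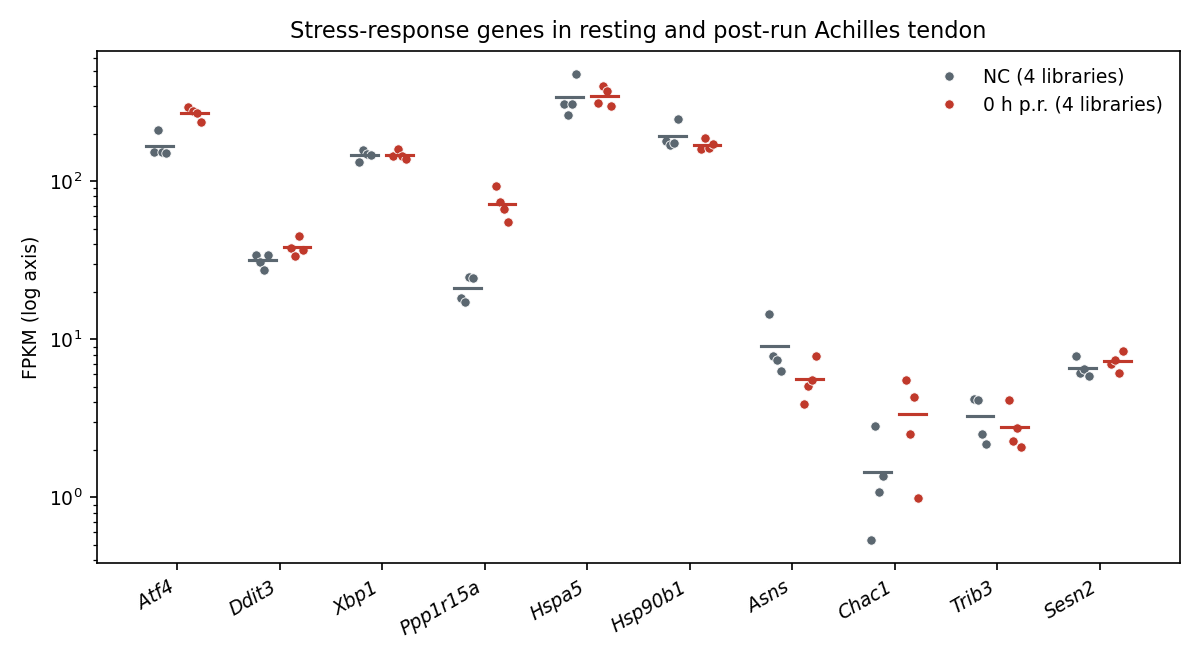
FPKM on a log axis of each of the 10 genes in the 4 NC and 4 0 h p.r. samples; each point is 1 sample and each horizontal bar a group mean. The 4 post-run samples lie above all 4 controls for Ppp1r15a and Atf4, and the groups overlap for the other 8 genes.

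The depth behind these values was 10660131 to 17464752 reads per library, recovered from the steps of the deposited values, with a median of 218 reads per gene and library. Tendon fibroblast markers were high in both groups: all 9 of 9 listed were present, with a summed level of 7528 to 13066 FPKM in NC and 10712 to 22227 FPKM after the run, and none was at 0. Adipocyte markers had lower means after the run in 8 of 8 genes, with a summed level of 2596 to 4867 FPKM in NC and 884 to 1893 FPKM after the run, and none was at 0. Skeletal muscle markers (8 of 10 in the table, 7 of them with a higher mean after the run, none at 0) summed to 3763 to 6885 FPKM in NC and to 1020 to 34491 FPKM after the run, with the highest value in 0 h p.r. replicate 1 and the lowest in replicate 4. Bone markers (6 of 6, 2 at 0 in a library) and cartilage markers (5 of 6, 1 at 0 in a library) had higher means after the run, with sums of 11.3 to 57.6 and 7.45 to 88.4 FPKM in NC and of 52.6 to 175 and 89.8 to 366 FPKM after it. Macrophage markers (6 of 6, 3 with a higher and 3 with a lower mean after the run, none at 0) summed to 236 to 527 FPKM in NC and 311 to 810.2 FPKM after the run. Of 5 plasma cell markers, 1 was in the table, at 0.210 to 0.840 FPKM in NC and 0.163 to 0.940 FPKM after the run. The part of these cell types in the results below was not tested, and in bulk tissue a smaller number of cells of a type and less RNA per cell cannot be told apart.

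In the control tendon the 10 genes spanned a wide range of levels per length. Hspa5 was highest at 339 FPKM, followed by Hsp90b1 (192 FPKM), Atf4 (167 FPKM) and Xbp1 (147 FPKM), and Ddit3 (31.7 FPKM) and Ppp1r15a (21.1 FPKM) formed a middle pair. Asns (9.04 FPKM), Sesn2 (6.56 FPKM), Trib3 (3.25 FPKM) and Chac1 (1.46 FPKM) were lowest. Among these neighbours the control ranges of Hsp90b1 and Atf4, Atf4 and Xbp1, Asns and Sesn2, and Trib3 and Chac1 overlapped. Ddit3 lay above Ppp1r15a in all 4 controls, while after the run Ppp1r15a lay above Ddit3 in all 4 samples.

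The promoters of the 2 genes that passed the test and of 4 that did not are shown to compare the motifs they hold. Each runs from 250 bases before to 50 bases after the RefSeq start on the rat build GRCr8, 300 bases in all, 5′ to 3′ on the gene's own strand. The windows are chr1:105139547-105139846 on the minus strand for Ppp1r15a, chr7:113684431-113684730 on the plus strand for Atf4, chr14:84604373-84604672 on the plus strand for Xbp1, chr3:38452766-38453065 on the plus strand for Hspa5, chr7:23012244-23012543 on the minus strand for Hsp90b1 and chr3:126795881-126796180 on the plus strand for Chac1. Capitals mark a match to one of the motifs given in the next paragraph.
Ppp1r15a: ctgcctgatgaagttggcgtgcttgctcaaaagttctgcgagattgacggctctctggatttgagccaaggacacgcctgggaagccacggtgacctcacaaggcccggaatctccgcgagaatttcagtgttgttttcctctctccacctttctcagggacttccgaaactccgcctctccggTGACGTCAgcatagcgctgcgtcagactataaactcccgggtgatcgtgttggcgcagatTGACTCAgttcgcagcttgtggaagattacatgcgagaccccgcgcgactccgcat
Atf4: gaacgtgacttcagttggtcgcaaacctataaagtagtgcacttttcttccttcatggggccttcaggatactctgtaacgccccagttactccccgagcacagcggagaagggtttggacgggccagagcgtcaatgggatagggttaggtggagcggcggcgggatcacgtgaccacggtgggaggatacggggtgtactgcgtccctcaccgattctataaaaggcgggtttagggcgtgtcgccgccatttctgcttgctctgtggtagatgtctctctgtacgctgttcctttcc
Xbp1: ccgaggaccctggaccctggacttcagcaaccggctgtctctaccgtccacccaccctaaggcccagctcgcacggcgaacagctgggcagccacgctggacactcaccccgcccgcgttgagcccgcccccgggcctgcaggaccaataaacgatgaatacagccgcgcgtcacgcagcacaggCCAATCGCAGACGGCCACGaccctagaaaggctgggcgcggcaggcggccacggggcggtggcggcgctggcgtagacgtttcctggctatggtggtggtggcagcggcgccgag
Hspa5: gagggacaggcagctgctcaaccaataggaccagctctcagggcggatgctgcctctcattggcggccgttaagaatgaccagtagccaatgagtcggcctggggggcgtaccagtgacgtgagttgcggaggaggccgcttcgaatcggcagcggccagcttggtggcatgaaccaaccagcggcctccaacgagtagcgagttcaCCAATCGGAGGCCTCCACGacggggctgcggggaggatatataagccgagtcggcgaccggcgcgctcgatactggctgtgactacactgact
Hsp90b1: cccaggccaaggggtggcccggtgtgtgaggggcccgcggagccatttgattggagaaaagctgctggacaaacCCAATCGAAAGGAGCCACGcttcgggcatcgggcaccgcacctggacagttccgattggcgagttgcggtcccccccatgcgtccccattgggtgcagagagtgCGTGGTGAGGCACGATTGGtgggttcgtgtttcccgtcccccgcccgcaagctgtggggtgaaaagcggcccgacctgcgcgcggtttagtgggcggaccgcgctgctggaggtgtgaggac
Chac1: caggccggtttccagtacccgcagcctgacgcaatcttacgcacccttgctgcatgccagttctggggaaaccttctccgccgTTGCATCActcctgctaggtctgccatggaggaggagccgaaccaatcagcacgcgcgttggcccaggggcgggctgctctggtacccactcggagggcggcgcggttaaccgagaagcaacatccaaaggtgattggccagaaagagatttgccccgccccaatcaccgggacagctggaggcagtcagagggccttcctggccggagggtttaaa

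The ER stress response element, the letters CCAAT and CCACG with 9 bases between them, is a motif through which ATF6 and XBP1 act on chaperone genes. Searched on both strands, it was in 3 of the 10 promoters and in 22 of 33469 rat promoters of the same length (0.0657%). Xbp1 held it at position -65 to -47 from the start, Hspa5 at -43 to -25, and Hsp90b1 held 2 copies, at -176 to -158 and, on the other strand, at -72 to -54. None of these 3 genes passed the test after the run. The cAMP response element TGACGTCA, which CREB and ATF family factors bind, was in the Ppp1r15a promoter at -66 to -59 and in 1.83% of all promoters. The AP-1 motif TGANTCA was at -6 to 1 in Ppp1r15a and at -241 to -235 in Ddit3, with 7.33% of all promoters holding it. The letters TTNCATCA, a form of the C/EBP-ATF response element that ATF4 uses, were at -167 to -160 in Chac1 and at -21 to -14 in Trib3, and in 3.98% of all promoters. The second ER stress element, ATTGG and CCACG with 1 base between them, was in none of the 10 and in 0.0508% of all promoters. No motif searched was found in these windows of Atf4, Asns and Sesn2, which says only that the letters are not in the 300 bases. A match describes letters and not a bound site.

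**Figure D2:**
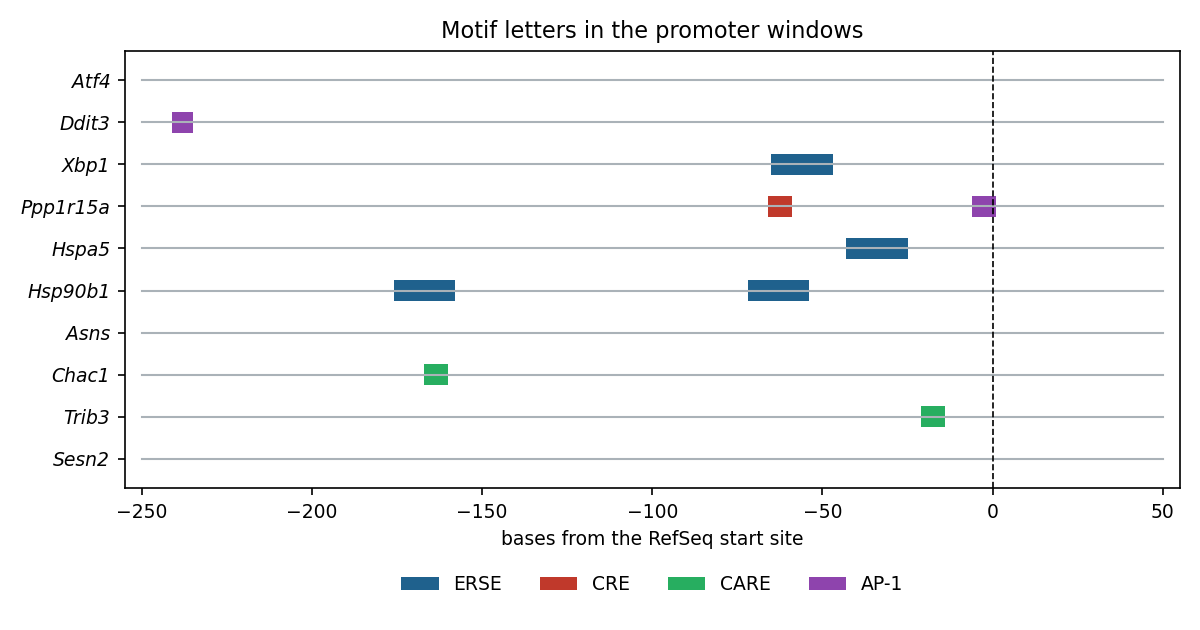
Positions of the searched motifs in the 300 base promoter of each of the 10 genes, as distance in bases from the RefSeq start at 0. The ER stress response element is in Xbp1, Hspa5 and Hsp90b1, and the cAMP response element is in Ppp1r15a.

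Among the transcription factors, Atf4 (ENSRNOG00000017801) rose and Ddit3 and Xbp1 did not pass the test. Atf4 read 153, 211, 153 and 151 FPKM in the 4 controls and 296, 277, 269 and 237 FPKM in the 4 post-run samples. All 4 post-run samples lay above the highest control, NC replicate 2, which itself stood apart from the other 3 controls. The mean went from 167 ± 29.4 to 269.9 ± 24.6 FPKM (SD, n = 4 each), a log2 change of 0.70 (SE 0.15) with a limma adjusted p of 0.0338. The 95% interval of the fold ran from 1.28 to 2.06, so Atf4 passed by adjusted p and stayed under the fold of 2. With 1 library omitted at a time, its adjusted p was under 0.05 in 2 of 8 fits: it was 0.00990 without NC replicate 2, 0.0299 without 0 h p.r. replicate 4, and reached 0.109 without 0 h p.r. replicate 2, while the log2 change stayed between 0.66 and 0.82.

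Ddit3 (ENSRNOG00000006789) encodes CHOP, a factor tied to cell death under lasting ER stress. It read 34.0, 30.8, 27.5 and 34.3 FPKM in NC and 37.6, 33.5, 44.9 and 36.5 FPKM after the run. In 3 of 4 post-run samples Ddit3 was above the highest control, and the groups overlapped through 0 h p.r. replicate 2. The means were 31.7 ± 3.17 and 38.1 ± 4.81 FPKM, and the fold of 1.20 (95% interval 0.986 to 1.46) had a limma adjusted p of 0.258. Per sample, the ratio of Atf4 to Ddit3 was 5.33 ± 1.15 in NC and 7.15 ± 1.08 after the run.

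Xbp1 (ENSRNOG00000010298), whose mRNA is the splicing target of IRE1, was the most even of the 3 factors. It read 133, 158, 149 and 147 FPKM in NC and 144, 159, 144 and 138 FPKM after the run, and the ranges lay almost on top of each other. The means were 147 ± 10.3 and 146 ± 8.90 FPKM, and the 95% interval of the fold, 0.837 to 1.19, bounds the change in total Xbp1 mRNA (limma adjusted p = 0.992).

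Ppp1r15a (ENSRNOG00000020938), the inducible subunit that brings protein phosphatase 1 to eIF2α, changed most among the 10 genes. It read 18.2, 17.2, 24.6 and 24.5 FPKM in NC and 92.6, 73.3, 66.6 and 54.8 FPKM after the run, from 412 to 3219 reads per library. The lowest post-run sample, replicate 4, was above the highest control. The mean rose from 21.1 ± 3.97 to 71.9 ± 15.8 FPKM, a log2 change of 1.73 (SE 0.19) or a fold of 3.33 (95% interval 2.48 to 4.46), with a limma adjusted p of 0.00205. It stayed called whichever library was left out, with log2 changes of 1.6 to 1.86 and adjusted p values of 0.00160 to 0.0127. Ppp1r15a ranked 103 of the 13863 genes by log2 change. Its constitutive relative Ppp1r15b went from 10.1 ± 2.19 to 12.5 ± 0.340 FPKM (limma adjusted p = 0.299). All 4 post-run samples of Ppp1r15b also lay above its highest control. The ratio of Ppp1r15a to Ppp1r15b was 1.59, 2.50, 2.16 and 2.29 in the controls and 7.26, 5.74, 5.46 and 4.51 after the run, and the groups did not overlap.

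Within the post-run group Ppp1r15a, Atf4, Chac1 and Trib3 were highest in replicate 1 and lowest in replicate 4. Asns was the reverse, highest in replicate 4 and lowest in replicate 1, and the remaining members had neither order. The skeletal muscle markers were highest in replicate 1 and lowest in replicate 4. Their mean log2(FPKM + 0.5) was 11.2 in replicate 1 and 6.26 in replicate 4, against 7.47 to 9.07 in NC. The adipocyte and bone markers ran the other way, lowest in replicate 1 (4.97 and 2.05) and highest in replicate 4 (6.48 and 3.42), and the cartilage and macrophage markers were also highest in replicate 4 (4.89 and 4.65). Tendon fibroblast markers were highest in replicate 2 (8.97) and lowest in replicate 3 (8.24). The part of these cell types in the spread of the 4 genes was not tested.

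**Figure D3:**
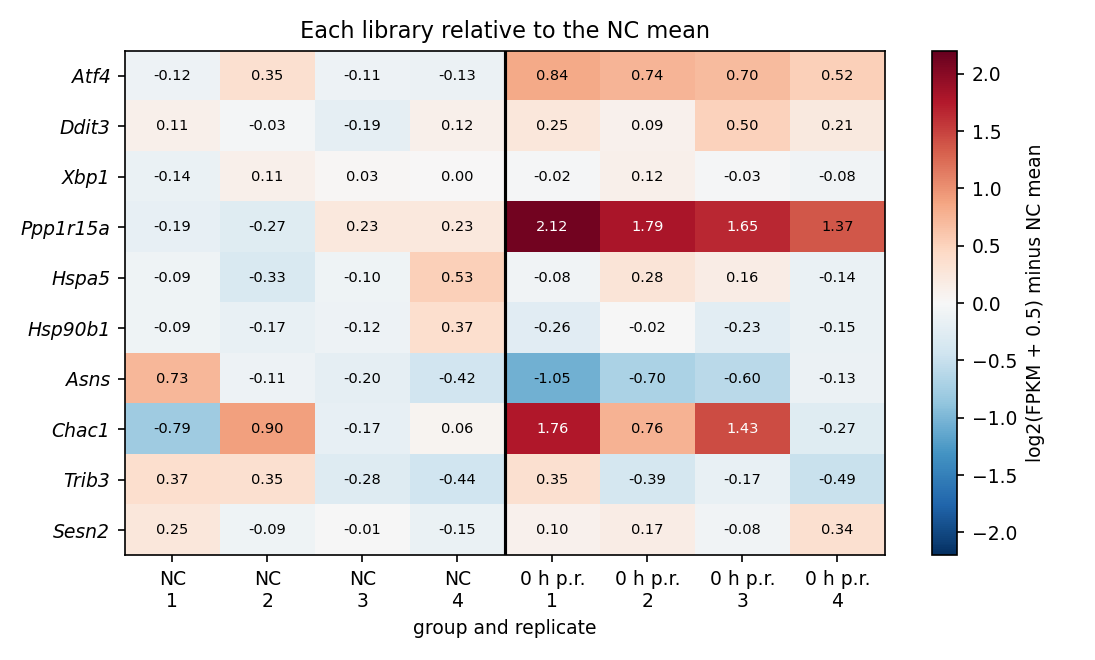
Level of each gene in each sample relative to its control mean, as a log2 difference of FPKM + 0.5. Ppp1r15a is highest in 0 h p.r. replicate 1 and lowest in replicate 4 among post-run samples, and Asns is highest in NC replicate 1.

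The 2 ER chaperones were abundant and did not pass the test. Hspa5 (ENSRNOG00000018294) encodes BiP, the main Hsp70 of the ER and a classic readout of the unfolded protein response. It read 309, 263, 308 and 476 FPKM in NC and 313, 401, 369 and 299.7 FPKM after the run, so the highest and the lowest of all 8 values were both controls. The means were 339 ± 93.7 and 346 ± 47.6 FPKM, and the 95% interval of the fold was 0.752 to 1.43 (limma adjusted p = 0.918). Hspa5 was at percentile 98.4 of level among the genes tested.

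Hsp90b1 (ENSRNOG00000026963) encodes GRP94, the Hsp90 of the ER. It read 179, 169, 175 and 246 FPKM in NC and 159, 187, 162 and 171 FPKM after the run. NC replicate 4 was the highest sample for both chaperones, and the groups overlapped. The means were 192 ± 36.1 and 169.6 ± 13 FPKM, with a fold interval of 0.705 to 1.13 and a limma adjusted p of 0.582. RefSeq lists 2 rat pseudogenes of Hsp90b1, and any reads shared with them would make its level less certain, which was not tested. The ratio of Hsp90b1 to Hspa5 was 0.576 ± 0.0514 in NC and 0.495 ± 0.0570 after the run.

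**Figure D4:**
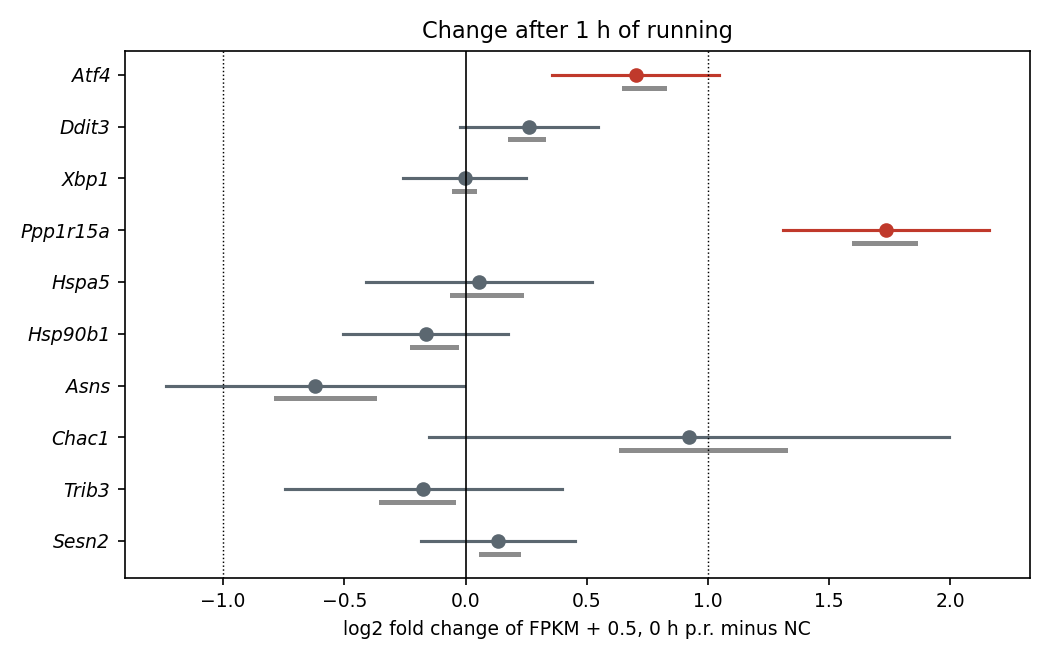
Log2 change of each of the 10 genes, 0 h p.r. minus NC, with its 95% interval from limma. The intervals of Ppp1r15a and Atf4 lie above 0, that of Asns ends just below 0 with an adjusted p of 0.219, and the other 7 cross 0.

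Ddit3 and Ppp1r15a are themselves known targets of ATF4. Of the other 4 targets among the 10 genes, which act in metabolism and signalling, none passed the test, and 2 had positive and 2 had negative log2 changes. Chac1 (ENSRNOG00000014387), which breaks down glutathione, had the widest spread of the 10. It read 0.538, 2.83, 1.09 and 1.37 FPKM in NC and 5.56, 2.53, 4.33 and 0.988 FPKM after the run, from 15, 44, 25 and 32 reads and 116, 72, 87 and 28 reads. Post-run replicates 1 and 3 lay above every control, and replicates 2 and 4 lay within the control range. The log2 change was 0.92 with a 95% interval of -0.15 to 1.99 and a limma adjusted p of 0.294, which ranged from 0.0777 (without 0 h p.r. replicate 4) to 0.546 when single libraries were left out. A rise of the size seen in Ppp1r15a lies inside that interval, so at this depth and spread the data do not separate it from no change.

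Trib3 (ENSRNOG00000007319), a pseudokinase that binds AKT and ATF4, read 4.19, 4.12, 2.50 and 2.19 FPKM in NC and 4.12, 2.28, 2.74 and 2.09 FPKM after the run, from 63 to 144 reads. Both groups covered nearly the same range. The means were 3.25 ± 1.05 and 2.81 ± 0.917 FPKM, with a log2 interval of -0.75 to 0.40 (limma adjusted p = 0.751). Sesn2 (ENSRNOG00000042785), a leucine sensor that restrains mTORC1, read 7.82, 6.10, 6.47 and 5.84 FPKM in NC and 7.02, 7.40, 6.13 and 8.41 FPKM after the run. Its groups overlapped, with means of 6.56 ± 0.882 and 7.24 ± 0.942 FPKM and a log2 interval of -0.18 to 0.45 (limma adjusted p = 0.641).

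Asns (ENSRNOG00000007546), the enzyme that makes asparagine and a standard ATF4 target, had lower values after the run. It read 14.5, 7.89, 7.44 and 6.31 FPKM in NC and 3.89, 5.10, 5.50 and 7.78 FPKM after the run. In 3 of 4 post-run samples Asns was below the lowest control, while replicate 4 lay among the controls. The means were 9.04 ± 3.72 and 5.57 ± 1.63 FPKM, a log2 change of -0.62 (95% interval -1.24 to -0.0044) that did not pass after adjustment (limma adjusted p = 0.219). Without NC replicate 1 the log2 change was -0.38, and over all 8 fits that left out 1 library the adjusted p ran from 0.111 to 0.433. NC replicate 1 also had the highest adipocyte marker level of the controls and 0 h p.r. replicate 4 the highest of the post-run samples (mean log2(FPKM + 0.5) of 8.07 and 6.48), and the part of adipocyte RNA in the Asns values was not tested.

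The other genes of the pathway were read from 6 lists holding 93 genes, of which 88 were in the table and 85 were tested. Of the 85, 5 were called higher, 2 were called lower and 78 were not called, with a median log2 change of 0.05. Over all 13863 genes tested, 2.70% were called, 250 of them higher and 124 lower. The 7 called genes came from 2 lists, the stress factors downstream of ATF4 and the genes of amino acid synthesis and transport. Leaving out any one of NC replicates 1, 2 and 3 or 0 h p.r. replicates 1, 2 and 3 left 4 called genes.

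None of the 13 sensors, kinases and eIF2 regulators was called, and the median log2 change of the list was -0.00080. One of them passed by adjusted p alone: Impact, an inhibitor of the amino acid sensing kinase GCN2, rose from 10.4 ± 0.848 to 14.4 ± 0.679 FPKM (log2 change 0.45, limma adjusted p = 0.0415, and 0.0455 to 0.132 when single libraries were left out, under 0.05 in 2 of 8). Impact did not pass with quantile normalization (limma adjusted p = 0.0600), with FPKM rescaled to equal sums per library (0.450) or with the replicate block (0.155). Ern1, which encodes the sensor IRE1, had the largest log2 change of the list, with 3.91 ± 1.04 FPKM in NC and 6.13 ± 0.712 FPKM after the run (log2 change 0.62, limma adjusted p = 0.102).

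The remaining 19 ER chaperones and folding enzymes included none that was called or passed by adjusted p alone, and their median log2 change was -0.05. The 2 with the largest changes were Sdf2l1, an ER chaperone partner, at 24.8 ± 10.4 and 13.5 ± 2.26 FPKM (limma adjusted p = 0.123), and the oxidase Ero1a at 10.5 ± 1.76 and 14.9 ± 1.90 FPKM (limma adjusted p = 0.0980). Of 13 tested genes of ER-associated degradation, which clears misfolded protein, none was called and the median log2 change was 0.08. Edem2, a mannosidase that marks glycoproteins for degradation, fell from 9.76 ± 0.672 to 4.96 ± 1.58 FPKM, a log2 change of -0.95 just under the fold of 2 (limma adjusted p = 0.0260, under 0.05 in 2 of 8 fits without 1 library). Edem2 crossed the fold of 2 and was called with a pseudocount of 0.1 (log2 change -1.01, limma adjusted p = 0.0277), with array weights (-1.01, 0.00455) and without 0 h p.r. replicate 4 (-1.13, 0.00390). It did not pass with equal sums per library (0.183) or with the replicate block (0.0586). Herpud1, an ER membrane protein of the same pathway, had 59.6 ± 9.13 and 84.1 ± 8.47 FPKM (log2 change 0.50, limma adjusted p = 0.0752).

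Among 11 tested stress factors and effectors downstream of ATF4, 2 were called higher and none lower, beside 2.70% of all genes tested called in either direction, and the median log2 change was 0.23. Atf3, a stress-induced ATF factor, rose from 10.1 ± 6.66 to 58.5 ± 12 FPKM (log2 change 2.70, limma adjusted p = 0.0117). Cebpb, a bZIP partner of ATF4 that other signals also induce, rose from 55.7 ± 5.02 to 166 ± 10.7 FPKM (log2 change 1.57, limma adjusted p = 0.000299). Both were called in all 8 fits that left out 1 library.

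Of 17 tested genes of amino acid synthesis and transport, 3 transporters were called higher, 2 enzymes of serine synthesis were called lower and 12 were not called. Over all genes tested, 2.70% were called in either direction. The list median was -0.03 on the log2 scale. Slc7a5, the large neutral amino acid transporter, rose from 3.05 ± 0.719 to 13.1 ± 4.86 FPKM (log2 change 1.87, limma adjusted p = 0.00998). Slc1a4, a neutral amino acid transporter, rose from 6.03 ± 2.08 to 25.6 ± 11.1 FPKM (log2 change 1.98, limma adjusted p = 0.00928), with 42.1 FPKM in 0 h p.r. replicate 4 and 18.7 to 21.5 FPKM in the other 3 post-run samples. Both were called in all 8 fits that left out 1 library. Slc7a1, the cationic amino acid transporter, rose from 2.50 ± 1.10 to 8.26 ± 2.80 FPKM (log2 change 1.56, limma adjusted p = 0.0329), and was called in 2 of those 8 fits. Slc38a2, a glutamine and alanine transporter named after its values were seen, passed by adjusted p and stayed under the fold of 2, with 44.7 ± 5.16 and 85.5 ± 9.29 FPKM (log2 change 0.93, limma adjusted p = 0.00632).

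Phgdh, the first enzyme of serine synthesis, read 37.1, 21.2, 17.0 and 13.3 FPKM in NC and 3.67, 5.26, 5.02 and 12.6 FPKM after the run. The groups did not overlap, although 0 h p.r. replicate 4 came close to the lowest control. The log2 change was -1.71 with a limma adjusted p of 0.0404. Psat1, the next enzyme, read 8.70, 7.93, 6.82 and 5.30 FPKM in NC and 1.70, 4.04, 2.29 and 4.0 FPKM after the run, a log2 change of -1.18 (limma adjusted p = 0.0368). Phgdh and Psat1 were each called in 2 of 8 fits that left out 1 library, those that dropped NC replicate 4 or 0 h p.r. replicate 4, and their adjusted p values reached 0.116 and 0.106. With FPKM rescaled to equal sums per library, the calls of Phgdh, Psat1 and Slc7a1 were lost (limma adjusted p of 0.103, 0.144 and 0.115). They were also lost with the replicate block (limma adjusted p of 0.118, 0.106 and 0.106). As with Asns, NC replicate 1 was the highest sample for both and for the adipocyte markers, and the part of adipocyte RNA in the 2 falls was not tested.

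None of the 12 aminoacyl-tRNA synthetases, which charge tRNAs and are a known group of ATF4 targets, was called or passed by adjusted p alone. Their median log2 change was 0.17, and the largest were those of Cars (0.41, limma adjusted p = 0.132) and Iars (0.39, limma adjusted p = 0.247). Cars passed by adjusted p with array weights (0.0328) and without 0 h p.r. replicate 4 (log2 change 0.53, limma adjusted p = 0.0371). Ern1 and Herpud1 also passed by adjusted p with array weights (0.0490 and 0.0210), all 3 under the fold of 2.

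**Figure D5:**
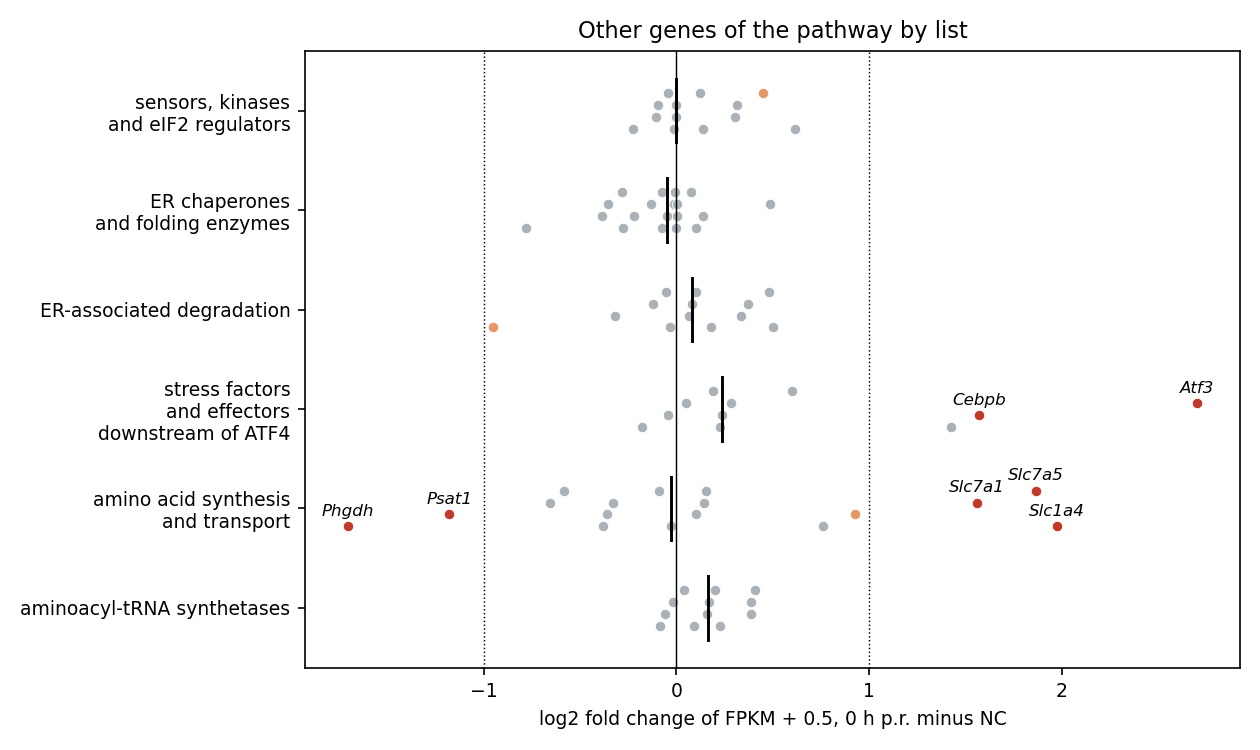
Log2 change, 0 h p.r. minus NC, of every tested gene in the 6 pathway lists, 1 point per gene, with called genes in red and named, genes past the adjusted p alone in orange, the list median as a short line and dotted lines at a fold of 2. The called genes lie in 2 lists, 5 of them higher and 2 lower, while the chaperone and tRNA synthetase lists hold none.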

How the data were processed

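PolyA RNA-seq was made from 4 NC and 4 0 h p.r. tendons. The submitters' processing notes name HISAT2 2.1.0, featureCounts 1.6.3 and DESeq2 1.30.1, and the build Rnor_6.0. The deposited table holds FPKM per gene and library as the authors computed it, with a scaling between libraries, and columns of the authors' own fold changes and p-values, which were not used. FPKM steps gave back whole reads for 15589 of 15590 genes, within a relative tolerance of 6e-07. The 95% intervals are limma's and rest on the spread between samples. Values were taken as log2(FPKM + 0.5), genes with at least 0.5 FPKM in at least 4 libraries were kept, and limma 3.58.1 (R 4.3.3) compared the groups over all 13863 genes, with Benjamini-Hochberg adjustment; the fit was tested on simulated data. A call needed an adjusted p under 0.05 and a fold of at least 2. Because the values are FPKM and not counts, limma on log values was the test, and voom on the recovered reads was an alternative.

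All 10 genes are given, and of the 6 pathway lists every called gene and the 2 with the largest absolute log2 change in each. The members, pathway lists and marker lists (tendon fibroblast, skeletal muscle, adipocyte, bone, cartilage, plasma cell, macrophage) were chosen with earlier results of these data known. Promoters are RefSeq sequences on GRCr8; all 10 genes matched. Alternatives were other pseudocounts, filters, scalings, array weights, a replicate block and leaving out each library.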

Additional observations from a re-analysis of the deposited data

Results flagged for a closer look

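In 5 of 50 groups of 4 samples looked at, 1 sample stood far from the other 3, and chance alone marks some groups in such a screen (about 5 in 100). Atf4 was 211 FPKM in NC replicate 2, against 151 to 153 FPKM in the other controls. Hsp90b1 was 246 FPKM in NC replicate 4, against 169 to 179 FPKM in the other controls. Slc1a4 was 42.1 FPKM in 0 h p.r. replicate 4, against 18.7 to 21.5 FPKM in the other post-run samples. Cars was 11 FPKM in NC replicate 3, against 9.48 to 9.67 FPKM in the other controls. Iars was 5.60 FPKM in 0 h p.r. replicate 4, against 7.50 to 7.60 FPKM in the other post-run samples.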

How the results depend on the processing

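Of the 10 genes, 1 was called in every setting tried, and 2 passed by adjusted p alone. Over all genes the count of 374 became 793 by adjusted p alone, 166 with FPKM rescaled to equal sums per library, 212 with the replicate block, and 195 to 516 when 1 library was left out (217 when it was NC replicate 1, and 195 and 201 when it was post-run replicate 2 or 3). The count of 7 called among the other pathway genes became 4 with equal sums, 5 with the replicate block, and 4 to 8 when 1 library was left out. The replicate block lost the calls of Phgdh, Psat1 and Slc7a1, so its 5 include a gene outside the 7. With the replicate block Ppp1r15a had a limma adjusted p of 0.0232 and Atf4 of 0.108. Same-numbered libraries did not deviate together (r of -0.14 to 0.07). The labels name no pairing, and these correlations cannot exclude one in the design. For the 8 members that did not pass, the lowest adjusted p over 144 fits was 0.0522 (Chac1 with array weights). Xbp1 and Hspa5, with log2 changes near 0, changed sign in 2 and 1 of 10 other settings. Chac1 rests on 15 to 116 reads per library and Trib3 on 63 to 144. The causes were not tested.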
